A study of Capra hircus with 20 samples.

Results

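The genes described here make cholesterol or control how much of it a cell makes. They are SREBF2, which encodes the transcription factor SREBP2, its target INSIG1, and 6 enzymes of the pathway, HMGCS1, IDI1, FDPS, FDFT1, SQLE and DHCR7. Their rows were taken from the mRNA table by symbol, and the genes were chosen with earlier results of these data known. Of the 8 symbols, 7 had rows, with 14 transcripts among the 43766 transcripts of 20587 genes in the table, and IDI1 was not analysed here. All 7 passed the filter on low values, which kept 11432 genes.

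Cells make cholesterol from acetyl-CoA. HMGCS1 acts on the way to mevalonate, IDI1 and FDPS to farnesyl diphosphate, FDFT1 to squalene, and SQLE and the later enzymes, DHCR7 among the last, to cholesterol. SREBP2 is held in the endoplasmic reticulum by SCAP and the INSIG proteins while sterols are plentiful. When sterols are low it is carried to the Golgi, cut by a pair of proteases, and its released part switches on the genes of the pathway and INSIG1, which closes the loop. In fat cells, cholesterol lies in the membranes and around the lipid droplets, and fat tissue is a large store of free cholesterol.

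The cells came from 5 male Jianzhou Daer goats, 7 days old. Intramuscular preadipocytes (IMPA) were isolated from the longissimus dorsi muscle and subcutaneous preadipocytes (SPA) from subcutaneous fat by collagenase digestion, grown to passage 3 in DMEM/F12 with 10% fetal bovine serum, and collected at day 0. Intramuscular adipocytes (IMA) and subcutaneous adipocytes (SA) are such cells after 3 days of induction with oleic acid. Each group had 5 libraries, numbered 1 to 5, and no label ties a number to a goat, so the p-values measure the spread between these libraries. The model has no uninduced culture kept for the same 3 days, so induction and time in culture cannot be told apart.

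Levels are given in FPKM, fragments scaled to the length of the transcript and to the mapped fragments of the library, summed over the transcripts of a gene. FPKM corrects for length, and levels of different genes are compared on this scale only. Library sums of FPKM ranged from 527426 to 596669, and 15126 to 16961 genes were above 0. Without counts, the depth behind a value is unknown. By the study's alignment statistics the mapped share of reads was lower in every adipocyte library than in every preadipocyte library of the same depot. The share was also higher in every intramuscular than in every subcutaneous library of the same stage. It fell further with stage in intramuscular cells. Mapped share therefore cannot be told apart from stage, from depot or from their interaction. By its read numbers, SPA1 and SA5 lost a smaller share of reads in filtering than the other subcutaneous libraries, and results of the members are given without them where a call changes.

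The labelled cell types were checked against marker genes. Of 9 adipocyte markers with rows, 6 had a mean under 1 FPKM in IMPA, 6 in IMA, 6 in SPA and 4 in SA. PPARG, the master regulator of fat cell formation, had means of 0.475, 0.364, 0.624 and 1.03 FPKM in IMPA, IMA, SPA and SA, and LEP was listed at 0 in every SA library. ADIPOQ and PLIN1, which mark mature fat cells, had means of at most 0.419 and 0.276 FPKM in any group, so these defining markers of adipocytes were near 0 in the libraries labelled adipocyte too, and the groups are called by their labels. PLIN2, which coats lipid droplets in many cell types, was the most abundant of the list, with means of 49.8, 165.8, 256.6 and 396.4 FPKM in IMPA, IMA, SPA and SA, and made up most of the sum that follows. CEBPA, a partner factor of PPARG, had means of 9.23, 5.42, 5.05 and 3.91 FPKM and fell in both depots (log2 changes -0.68, adjusted p = 4.28e-06, and -0.31, adjusted p = 0.00794). CD36, a fatty acid transporter, had means of 0.252, 4.91, 0.0679 and 0.934 FPKM and rose in both (2.24, adjusted p = 2.85e-10, and 0.84, adjusted p = 2.62e-05). CIDEC, a lipid droplet protein, had means of 0.333, 0.318, 4.65 and 4.35 FPKM, and LPL, a lipoprotein lipase under the filter on low values, 1.02, 0.941, 0.549 and 1.34 FPKM. The summed level of the adipocyte markers ranged from 47.1 to 79.2 FPKM in IMPA, 139.9 to 200.5 in IMA, 261.0 to 275.9 in SPA and 388.0 to 432.6 in SA. The 14 skeletal muscle markers with rows summed to between 5093 and 5972 FPKM in IMPA and between 16105 and 17159 FPKM in IMA, against 6.95 to 28.4 FPKM in SPA and 7.70 to 11.2 FPKM in SA. The median SPA library summed to 7.82 FPKM, and SPA1 was the highest. The intramuscular libraries therefore hold muscle transcripts in both stages, MYLPF, a fast muscle myosin light chain, at 1061 FPKM in IMPA and 4534 FPKM in IMA. The 7 fibroblast and preadipocyte markers summed to 4314 to 6767 FPKM in IMPA and 5699 to 6454 in IMA. In SPA they summed to 10476 to 10915 FPKM and in SA to 9633 to 9960. COL3A1 and DCN made up most of these sums. DLK1, on the same list, was near 0, with means of 0.0114, 0.0316, 0.145 and 0.157 FPKM in IMPA, IMA, SPA and SA. The 5 endothelial markers summed to at most 1.19 FPKM. The 5 immune markers summed to between 4.42 and 18.2 FPKM over all libraries. Most of that was CD14, at 3.63 to 15.4 FPKM, while PTPRC never passed 0.0107 FPKM. In cell populations, fewer cells of a type and less RNA per cell cannot be told apart.

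The first question was how the pathway differed between the cells of day 0 and the induced cells labelled adipocytes. All 7 genes fell from IMPA to IMA, by between 34.2% for FDFT1 and 62.3% for SQLE in mean FPKM. From SPA to SA, 6 of the 7 fell, by between 33.9% for FDFT1 and 55.9% for INSIG1, and FDPS was 9.41% lower without passing the test. Among all 11432 genes tested, 40.2% were called lower in IMA than in IMPA and 26.0% lower in SA than in SPA, with an adjusted p under 0.05 in limma's moderated test on log2(FPKM + 1). The groups did not overlap for 7 of the 7 genes in intramuscular cells and for 6 of the 7 in subcutaneous cells, while 29.2% and 19.0% of all genes were lower without overlap in these comparisons. The 6 genes were called lower in both depots, as were 11.8% of all genes tested. Summed over the 7 genes, FPKM ranged from 136.8 to 166.3 in IMPA, 84.6 to 99.3 in IMA, 114.3 to 120.3 in SPA and 75.7 to 84.2 in SA.

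**Figure D1:**
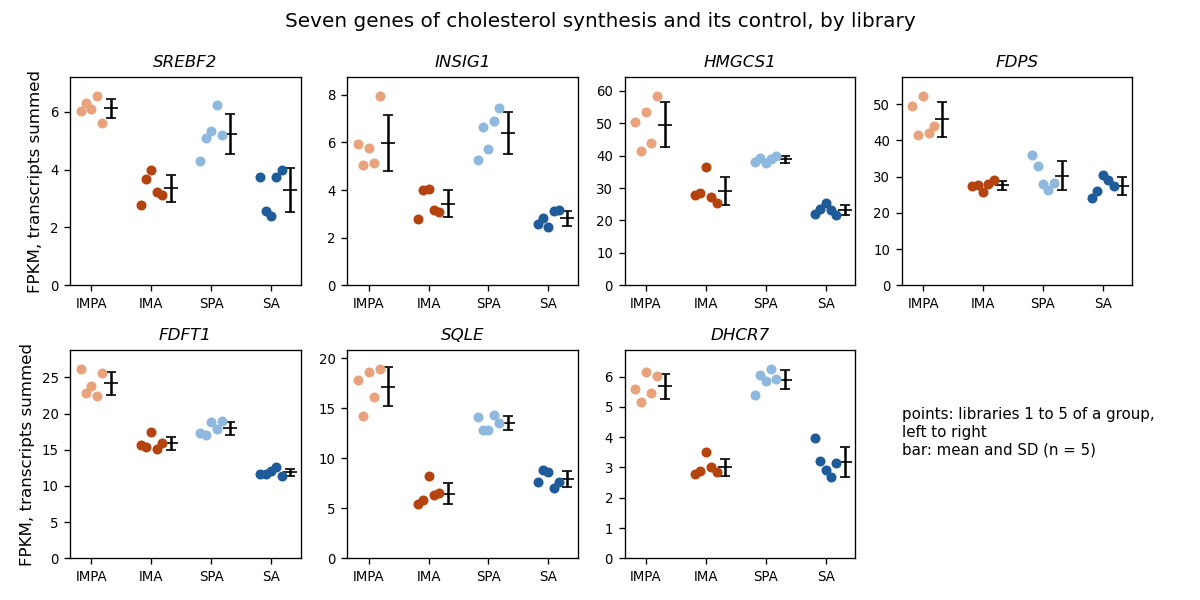
FPKM of the 7 genes (y axis, transcripts summed, from 0) in the libraries of IMPA, IMA, SPA and SA (x axis). Points are libraries 1 to 5 of a group from left to right, and the black bar gives the mean and SD (n = 5). The IMA points lie below all IMPA points in every panel, and the SA points lie below all SPA points in every panel except FDPS.

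The regulators come first. SREBF2 (transcript XM_018048827.1) stood at 6.04, 6.29, 6.09, 6.54 and 5.62 FPKM in IMPA 1 to 5 and at 2.77, 3.66, 3.99, 3.21 and 3.12 FPKM in IMA 1 to 5. It stood at 4.30, 5.10, 5.34, 6.24 and 5.20 FPKM in SPA 1 to 5 and at 3.75, 2.58, 2.39, 3.76 and 3.99 FPKM in SA 1 to 5. The lowest preadipocyte library of each depot was above the highest adipocyte library, and SA2 and SA3 lay below the rest of SA. The log2 change was -0.72 (SE 0.07, adjusted p = 7.02e-06) in intramuscular cells and -0.55 (SE 0.12, adjusted p = 0.00211) in subcutaneous cells, the widest error among the called members. Log2 changes refer to FPKM + 1, which understates the change of a gene at these low levels.

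INSIG1 (transcript NM_001286088.1), which holds SREBP2 with SCAP in the endoplasmic reticulum, stood at 5.94, 5.06, 5.78, 5.16 and 7.94 FPKM in IMPA 1 to 5 and at 2.80, 4.01, 4.05, 3.16 and 3.09 FPKM in IMA 1 to 5. It stood at 5.27, 6.65, 5.72, 6.89 and 7.45 FPKM in SPA 1 to 5 and at 2.58, 2.81, 2.44, 3.13 and 3.14 FPKM in SA 1 to 5. IMPA5 was well above its group, and no adipocyte library reached a preadipocyte library of its depot. The log2 change was -0.65 (SE 0.11, adjusted p = 0.000380) in intramuscular and -0.95 (SE 0.09, adjusted p = 1.96e-06) in subcutaneous cells, the largest fall of the 7 genes in the latter. The second INSIG gene, INSIG2, did not pass the test in either depot, at -0.05 (adjusted p = 0.597) and -0.13 (adjusted p = 0.339). The ratio of INSIG1 to INSIG2 in FPKM was 0.600 ± 0.170 (SD, n = 5) in IMPA, 0.349 ± 0.0368 in IMA, 0.658 ± 0.0503 in SPA and 0.328 ± 0.0781 in SA.

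HMGCS1, which condenses acetyl-CoA and acetoacetyl-CoA to HMG-CoA, had the highest mean FPKM of the 7 genes in IMPA, IMA and SPA. It stood at 50.5, 41.5, 53.5, 44.0 and 58.4 FPKM in IMPA 1 to 5 and at 27.8, 28.5, 36.4, 27.3 and 25.5 FPKM in IMA 1 to 5. It stood at 38.0, 39.4, 37.7, 38.9 and 40.0 FPKM in SPA 1 to 5 and at 22.0, 23.7, 25.3, 23.3 and 21.7 FPKM in SA 1 to 5. The subcutaneous libraries were tight within each stage, and IMA3 stood above the rest of IMA. The log2 change was -0.75 (SE 0.10, adjusted p = 7.50e-05) in intramuscular and -0.72 (SE 0.04, adjusted p = 3.38e-08) in subcutaneous cells. Nearly all of it came from transcript XM_005694739.3, with means of 46.8, 27.0, 36.8 and 21.5 FPKM in IMPA, IMA, SPA and SA, while XM_005694740.3 never passed 2.98 FPKM.

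FDPS, which makes farnesyl diphosphate, the branch point of sterols and other isoprenoids, was the gene that differed between the depots in its call. It stood at 49.5, 41.6, 52.2, 42.0 and 43.8 FPKM in IMPA 1 to 5 and at 27.3, 27.7, 25.8, 28.0 and 29.1 FPKM in IMA 1 to 5. It stood at 35.8, 32.8, 28.1, 26.2 and 28.3 FPKM in SPA 1 to 5 and at 24.1, 26.1, 30.3, 29.2 and 27.3 FPKM in SA 1 to 5. IMA, SA and 3 libraries of SPA lay in a common range, and IMPA and, less so, SPA1 and SPA2 lay above it. The log2 change was -0.71 (SE 0.06, adjusted p = 2.56e-06) in intramuscular cells, and with the most abundant transcript in place of the sum it was -0.63 (adjusted p = 0.288). In subcutaneous cells it was -0.13 (SE 0.08, adjusted p = 0.208), with a 95% interval from -0.32 to 0.05, and it passed the test when the mRNA tables were scaled to equal sums (-0.20, adjusted p = 0.0463).

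FDFT1, squalene synthase, takes farnesyl diphosphate into the sterol branch. It stood at 26.2, 22.9, 23.8, 22.5 and 25.6 FPKM in IMPA 1 to 5 and at 15.7, 15.3, 17.4, 15.2 and 16.0 FPKM in IMA 1 to 5. It stood at 17.3, 17.0, 18.8, 17.8 and 19.0 FPKM in SPA 1 to 5 and at 11.7, 11.6, 12.1, 12.6 and 11.4 FPKM in SA 1 to 5. The libraries of a group were close together, and the stages were apart in both depots. FDFT1 changed by -0.57 on the log2 scale (SE 0.05, adjusted p = 3.10e-06) in intramuscular and -0.56 (SE 0.04, adjusted p = 4.25e-07) in subcutaneous cells, the smallest fall of the 7 genes in the former.

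SQLE, squalene epoxidase, the first oxygen-dependent step of the pathway, fell most in intramuscular cells. It stood at 17.8, 14.2, 18.7, 16.1 and 18.9 FPKM in IMPA 1 to 5 and at 5.46, 5.80, 8.20, 6.36 and 6.50 FPKM in IMA 1 to 5. It stood at 14.2, 12.8, 12.8, 14.3 and 13.5 FPKM in SPA 1 to 5 and at 7.59, 8.78, 8.62, 6.98 and 7.66 FPKM in SA 1 to 5. No adipocyte library passed 8.78 FPKM, and no preadipocyte library was below 12.8 FPKM. The log2 change was -1.28 (SE 0.10, adjusted p = 7.19e-07) in intramuscular and -0.70 (SE 0.06, adjusted p = 1.25e-06) in subcutaneous cells. Only 0.114% of the genes tested had a smaller log2 change than SQLE in intramuscular cells, and 0.770% a smaller one than INSIG1 in subcutaneous cells.

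DHCR7, which reduces 7-dehydrocholesterol to cholesterol, stood at 5.61, 5.16, 6.15, 5.47 and 6.02 FPKM in IMPA 1 to 5 and at 2.80, 2.89, 3.50, 3.00 and 2.85 FPKM in IMA 1 to 5. It stood at 5.41, 6.07, 5.84, 6.25 and 5.94 FPKM in SPA 1 to 5 and at 3.97, 3.21, 2.92, 2.68 and 3.16 FPKM in SA 1 to 5. The depots lay on top of each other in both stages. DHCR7 changed by -0.74 on the log2 scale (SE 0.06, adjusted p = 1.29e-06) in intramuscular and -0.73 (SE 0.07, adjusted p = 5.49e-06) in subcutaneous cells. With the most abundant transcript in place of the sum, the change was 0.22 (adjusted p = 0.671) and 0.05 (adjusted p = 0.953).

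The members' median log2 change was -0.72 in intramuscular and -0.70 in subcutaneous cells, against -0.09 and -0.01 over all genes tested. The fall was found in the same direction for the 6 genes in both depots under upper-quartile scaling, equal mRNA sums and quantile normalization. Over all genes, the share of lower calls among the calls in SA against SPA was 49.9%, and 63.5% with equal mRNA sums. Without SPA1 and SA5 together, the same number of members, 6, was called lower in subcutaneous cells.

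Other measures moved with the stage. The skeletal muscle markers were called higher in IMA than in IMPA for 13 of 14 genes, while MYLPF, at a mean of 1.35 FPKM in SPA and 0.343 FPKM in SA, and 13 of the 14 markers did not pass the test between the subcutaneous stages. The SPA mean of MYLPF rested mostly on SPA1, at 6.42 FPKM, with the other SPA libraries at 0.0297 to 0.157 FPKM. The 9 proliferation markers summed to between 143.6 and 173.6 FPKM in IMPA, 124.1 and 147.1 in IMA, 63.6 and 72.6 in SPA and 279.1 and 318.3 in SA. They were called lower in IMA for 6 of 9 and higher in SA for 9 of 9. MKI67, a marker of cycling cells, changed by -0.40 and 1.04. Of 8 housekeeping genes, 6 were called lower and 1 higher in IMA, and 3 lower and 3 higher in SA. Among all genes tested, 40.2% were called lower and 19.9% higher in IMA, and 26.0% lower and 26.1% higher in SA. The part of the marker and housekeeping genes in the fall of the members was not tested.

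The second question was whether the change differed between the depots, tested as the interaction of stage and depot over the 20 libraries. FDPS and SQLE fell further in intramuscular cells, by a difference of -0.57 (SE 0.11, adjusted p = 0.000181) and -0.58 (SE 0.12, adjusted p = 0.000359). Over all genes tested, 34.6% had such a lower difference called and 20.7% a higher one, so 2 of 7 is no larger a share than the background. The differences of DHCR7, FDFT1 and HMGCS1 were -0.01, -0.01 and -0.03, with 95% intervals from -0.21 to 0.19, from -0.16 to 0.13 and from -0.27 to 0.22. SREBF2 differed by -0.17 (95% interval -0.47 to 0.14, adjusted p = 0.346). INSIG1 differed by 0.30 the other way (adjusted p = 0.0965), and passed the test without IMPA5 (0.39, adjusted p = 0.0157), without SPA1 (0.35, adjusted p = 0.0484) and without SPA1 and SA5 (0.38, adjusted p = 0.0407). With the most abundant transcript in place of the sum, the difference of FDPS was -1.20 (adjusted p = 0.107).

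The unequal falls showed in some ratios of FPKM between enzymes of the pathway, given here without a test. The ratio of FDFT1 to SQLE in FPKM, which face each other over squalene, was 1.42 ± 0.127 (SD, n = 5) in IMPA, 2.50 ± 0.280 in IMA, 1.33 ± 0.106 in SPA and 1.51 ± 0.183 in SA. The lowest IMA library, at 2.13, was above the highest of the other groups, at 1.80 in SA. The ratio of FDPS to FDFT1 was 1.90 ± 0.181 in IMPA, 1.74 ± 0.149 in IMA, 1.69 ± 0.290 in SPA and 2.30 ± 0.169 in SA. Its ranges overlapped between the stages in both depots. The ratio of HMGCS1 to SQLE was 2.89 ± 0.129 in IMPA, 4.54 ± 0.476 in IMA, 2.88 ± 0.167 in SPA and 2.94 ± 0.239 in SA, and the lowest IMA library, at 3.93, was above the highest of the other groups, at 3.33 in SA.

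The third question was whether the depots differed at a given stage. Before induction, 5 of the 7 genes were called higher in IMPA than in SPA and 0 lower, against 42.3% of all genes called higher and 32.9% lower, with limma's adjusted p under 0.05. At an unadjusted p under 0.05 the same 0 were lower, since both genes left, DHCR7 (-0.05, adjusted p = 0.418) and INSIG1 (-0.09, adjusted p = 0.463), had p-values of 0.378 and 0.423. FDPS was 0.59 higher (SE 0.09, adjusted p = 5.70e-05), FDFT1 0.40 (SE 0.05, adjusted p = 1.04e-05) and HMGCS1 0.33 (SE 0.08, adjusted p = 0.00172) on the log2 scale. The call of FDPS was lost with the most abundant transcript (0.97, adjusted p = 0.0875). The groups did not overlap for FDPS, FDFT1 and HMGCS1, as 35.9% of all genes did not in that direction. SQLE was 0.31 higher (SE 0.07, adjusted p = 0.00139) with overlapping groups.

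SREBF2 was 0.20 higher in IMPA (SE 0.07, adjusted p = 0.0263), a call that rests on single libraries. The adjusted p was 0.0515 without IMPA2, 0.0601 without IMPA4, 0.0551 without SPA1 and 0.0512 without SPA2, at log2 differences of 0.19, 0.17, 0.14 and 0.19. It also missed the threshold with upper-quartile scaling (0.16, adjusted p = 0.0802) and quantile normalization (0.12, adjusted p = 0.125). The number of members called fell from 5 to 4 as well with no filter on low values and with equal mRNA sums. The same count, 4, was found with all 4 groups in the fit and in a plain linear model with Ballgown's library-size term. SREBF2 had the largest adjusted p of the 5 calls.

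After induction the order was mixed. FDFT1 was 0.39 higher (SE 0.05, adjusted p = 5.18e-06) and HMGCS1 0.31 higher (SE 0.08, adjusted p = 0.00303) in IMA than in SA, both without overlap, and SQLE was 0.27 lower (log2 difference -0.27, SE 0.09, adjusted p = 0.0160), a call lost when a plain linear model with Ballgown's library-size term was fitted instead (-0.27, adjusted p = 0.0916). Over all genes tested, 29.0% were called higher and 43.4% lower in IMA, and 24.0% were higher without overlap. FDPS (0.01, 95% interval -0.11 to 0.14), SREBF2 (0.03, 95% interval -0.22 to 0.28) and DHCR7 (-0.06, 95% interval -0.23 to 0.11) did not pass the test. INSIG1 was at 0.21 with an adjusted p of 0.0504, just above the threshold, and was called without IMA1 (0.26, adjusted p = 0.0178), IMA5 (0.23, adjusted p = 0.0459), SA4 (0.23, adjusted p = 0.0408) or SA5 (0.24, adjusted p = 0.0391). The 4 pairwise comparisons share libraries, so their values are not independent of each other.

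The order of the 4 groups differed by gene. For HMGCS1, IMPA was above SPA, SPA above IMA and IMA above SA, with no overlap between any neighbours, although the lowest SPA library, at 37.7 FPKM, lay only just above the highest IMA library, at 36.4 FPKM. For SREBF2 the order was the same, and only SPA and IMA were separated. For FDFT1 the order was again the same, and SPA and IMA overlapped, at 17.0 FPKM in the lowest SPA and 17.4 FPKM in the highest IMA library. For FDPS, SPA, IMA and SA overlapped in a row below IMPA. For SQLE the order was IMPA, SPA, SA and IMA, for DHCR7 SPA, IMPA, SA and IMA, and for INSIG1 SPA, IMPA, IMA and SA, each with a gap only between the preadipocytes and the adipocytes.

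**Figure D2:**
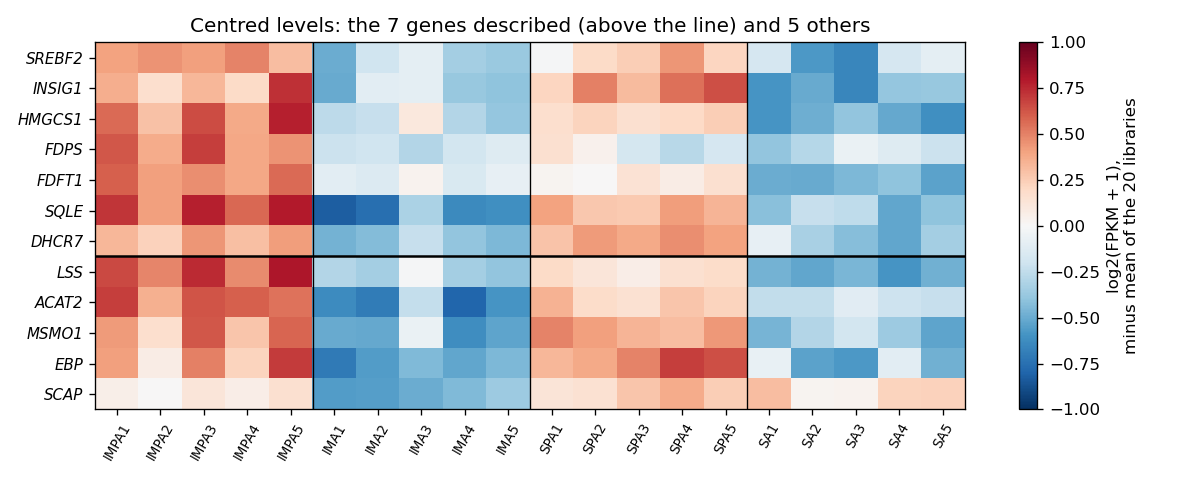
Level of each gene (rows) in each of the 20 libraries (columns, grouped as IMPA, IMA, SPA and SA) as log2(FPKM + 1) minus the mean of the gene over the libraries, red above and blue below that mean. The 7 genes described are above the black line, and LSS, ACAT2, MSMO1, EBP and SCAP below it. SQLE is deepest blue in IMA, FDPS is nearer its mean in IMA, SPA and SA than in IMPA, and SCAP is below its mean in every IMA library.

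Single libraries carried some of the spread. IMA3 was the highest library of IMA for 6 of the 7 genes, SREBF2, HMGCS1, SQLE, INSIG1, FDFT1 and DHCR7, and the lowest for FDPS. IMPA2 was the lowest library of IMPA for 5 of the 7 genes, and IMPA5 the highest for HMGCS1, SQLE and INSIG1. In the subcutaneous groups no library was the highest or the lowest for more than 3 of the 7 genes.

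The transcripts behind the sums were next. Of the 14 transcripts, SREBF2, INSIG1 and SQLE had 1 each, HMGCS1 and FDFT1 2 each, DHCR7 3 and FDPS 4. Of the 12 that passed the filter, 7 were called lower in IMA and 6 in SA, against 21.4% and 12.0% of the 16706 transcripts tested. FDFT1 rested on XM_005683526.3, with means of 22.1, 13.9, 17.0 and 11.1 FPKM in IMPA, IMA, SPA and SA, and its second transcript, XM_018051830.1, had means of 2.07, 2.05, 0.993 and 0.836 FPKM. The second transcripts of HMGCS1 and FDFT1 did not pass the test in subcutaneous cells (-0.17, adjusted p = 0.457, and -0.13, adjusted p = 0.355).

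For DHCR7 and FDPS the split between transcripts jumped from library to library while the sum did not. DHCR7 was given wholly to XM_013976064.2 in SPA1, at 5.41 FPKM, almost wholly to XM_018043426.1 in SPA2, at 6.05 FPKM, and mostly to XM_018043425.1 in SPA4, at 5.59 FPKM. The coefficient of variation within a group was between 5.32% and 15.2% for the sum of DHCR7 and between 24.4% and 218.4% for its single transcripts. In IMPA5, XM_005677386.3 of FDPS stood at 23.8 FPKM and XM_005677388.3 at 7.16 FPKM, whereas in IMPA 1 to 4 they stood at 8.67 to 13.0 and 28.0 to 33.8 FPKM. The coefficient of variation within a group was between 4.31% and 13.1% for the sum of FDPS.

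Between SPA and SA, 1 transcript of FDPS fell in level. XM_005677386.3 stood at 12.4, 10.6, 16.5, 14.5 and 19.4 FPKM in SPA 1 to 5 and at 9.16, 6.23, 6.63, 5.94 and 6.79 FPKM in SA 1 to 5, without overlap. Its log2 change was -0.97 (SE 0.16, adjusted p = 0.00162), while XM_005677388.3 was at 0.58 (SE 0.33, adjusted p = 0.252), with means of 12.5 and 17.5 FPKM. How well the fragments separate these transcripts is unknown, and their values are less certain than the sums.

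**Figure D3:**
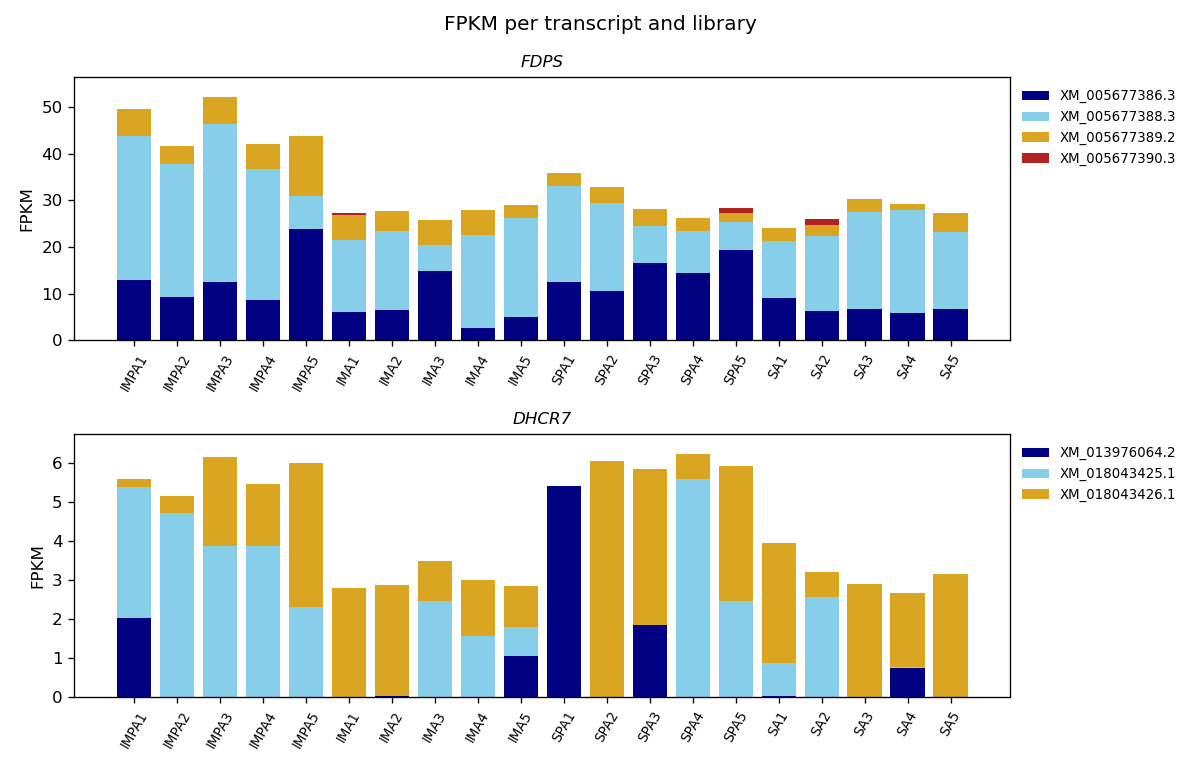
FPKM (y axis, from 0) of the transcripts of FDPS (top) and DHCR7 (bottom) in the 20 libraries (x axis), stacked so that the height of a bar is the sum used for the gene. The heights are alike within a group, and the colours change from library to library, most of all for DHCR7 in SPA.

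The rest of the pathway gives the setting of the members. Of 13 other enzymes listed with cholesterol synthesis, 9 were called lower in IMA and 9 lower in SA, against 40.2% and 26.0% of all genes. In each, 1 was called higher, against 19.9% and 26.1% of all genes. The 13 include GGPS1, which acts on the product of FDPS in the non-sterol branch, with means of 15.6 and 9.46 FPKM in IMPA and IMA. The median log2 change of the 13 was -0.56 in intramuscular and -0.30 in subcutaneous cells. ACAT2, which makes acetoacetyl-CoA, fell by 56.3% in mean FPKM from IMPA to IMA (log2 change -1.15, adjusted p = 1.40e-06) and by 27.7% from SPA to SA (-0.45, adjusted p = 3.42e-06). LSS, which closes the sterol ring, changed by -0.91 and -0.65, MSMO1, a sterol C4-methyl oxidase, by -0.86 and -0.77, and EBP, a sterol isomerase, by -0.92 and -0.86, all called in both depots. MSMO1 lost both calls with the most abundant transcript (-0.61, adjusted p = 0.579, and -0.86, adjusted p = 0.179).

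**Figure D4:**
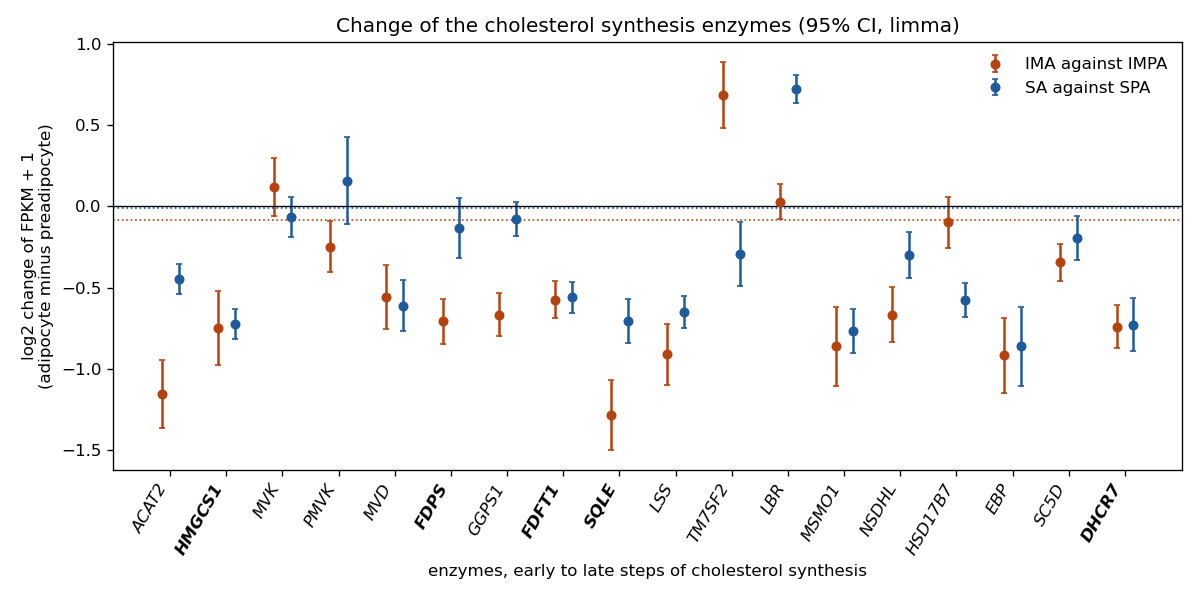
Log2 change of FPKM + 1 from preadipocytes to adipocytes (y axis) for 18 enzymes in about the order of their steps (x axis), the 5 enzymes described here in bold, with 95% confidence intervals from limma. Orange points are IMA against IMPA and blue points SA against SPA, and dotted lines mark the median of all genes tested, -0.09 and -0.01. GGPS1, shown after FDPS, belongs to the non-sterol branch. Most points lie below 0 in both depots. TM7SF2 lies above 0 in intramuscular and below 0 in subcutaneous cells, and LBR lies above 0 in subcutaneous cells.

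The enzymes called higher, TM7SF2 in IMA and LBR in SA, were named after their values were seen. Both reduce the sterol C14 double bond. TM7SF2 rose from 7.53 ± 1.32 FPKM in IMPA to 12.6 ± 0.876 FPKM in IMA (SD, n = 5 each) and was under 1 FPKM in every subcutaneous library. LBR, which also anchors chromatin at the nuclear envelope, rose from 14.3 ± 0.362 FPKM in SPA to 24.2 ± 1.28 FPKM in SA, beside the proliferation markers, and stood at 16.9 ± 1.11 and 17.2 ± 0.648 FPKM in IMPA and IMA.

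Of the 9 genes of SREBP activation and its partners tested, 6 were called lower and 1, MBTPS2, higher in IMA, against 40.2% and 19.9% of all genes. In SA, 1, ERLIN1, was called lower and 1, ERLIN2, higher, against 26.0% and 26.1% of all genes, and the 2 calls became 4 without SA5. SCAP, the escort of SREBP2, stood at 7.13, 6.86, 7.51, 7.19 and 7.72 FPKM in IMPA 1 to 5 and at 4.30, 4.34, 4.54, 4.77 and 5.09 FPKM in IMA 1 to 5, while SPA and SA overlapped at means of 8.22 and 7.80 FPKM. Its log2 change was -0.56 (adjusted p = 2.94e-06) in intramuscular and -0.07 (adjusted p = 0.424) in subcutaneous cells, and the difference of -0.50 was called (adjusted p = 4.79e-05). MBTPS1, the first protease that cuts SREBP2, showed the same picture at -0.54 (adjusted p = 6.85e-07) and -0.03 (adjusted p = 0.582), with a difference of -0.51 (adjusted p = 1.31e-07).

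SREBF1, the gene of the related factor that mainly drives fatty acid synthesis, did not pass the test in either depot, at -0.02 (95% interval -0.31 to 0.26, adjusted p = 0.888) and 0.10 (95% interval -0.07 to 0.28, adjusted p = 0.307). It was low, with means of 1.40, 1.35, 2.07 and 2.30 FPKM in IMPA, IMA, SPA and SA. ERLIN1 and ERLIN2 encode partner proteins of the endoplasmic reticulum membrane. ERLIN1 fell in both depots, with log2 changes of -0.43 and -0.39. ERLIN2 fell in IMA (-0.22, adjusted p = 0.000770) and rose in SA (0.15, adjusted p = 0.00413), the difference was called (-0.37, adjusted p = 8.70e-06), and with the most abundant transcript in place of the sum its change in IMA turned to 0.48. RNF139, a ubiquitin ligase, fell in IMA (-0.26, adjusted p = 0.000592) and was at 0.09 in SA (adjusted p = 0.160), where it was called without SA5 (0.13, adjusted p = 0.0204).

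**Figure D5:**
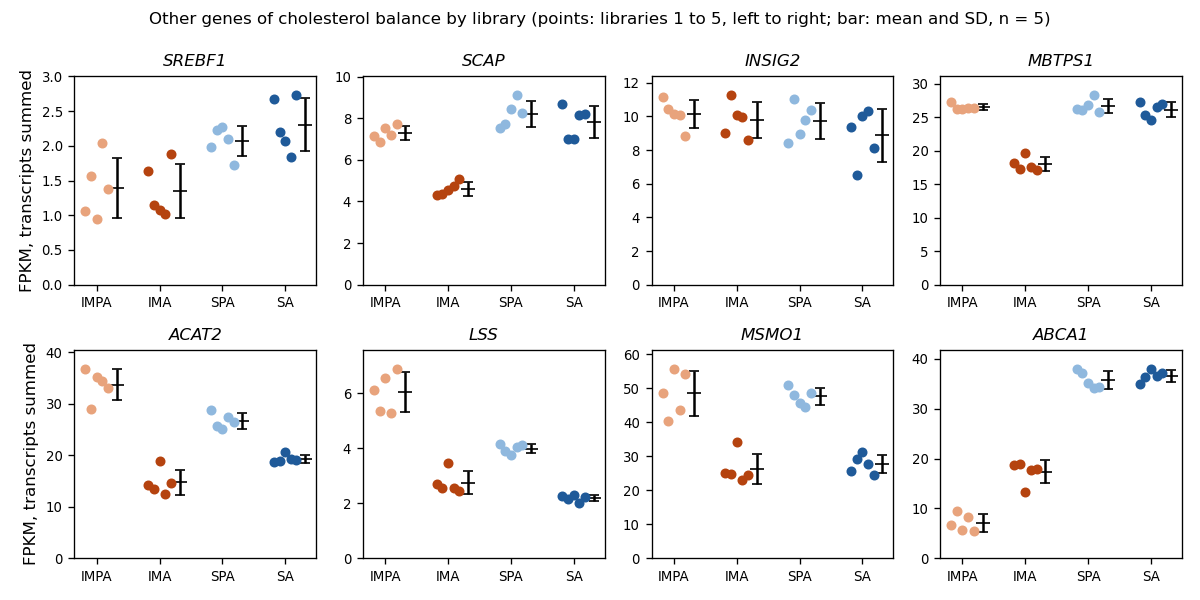
FPKM (y axis, transcripts summed, from 0) of SREBF1, SCAP, INSIG2, MBTPS1, ACAT2, LSS, MSMO1 and ABCA1 in IMPA, IMA, SPA and SA (x axis). Points are libraries 1 to 5 from left to right, and the black bar gives the mean and SD (n = 5). SCAP and MBTPS1 are lower in IMA than in IMPA and overlap between SPA and SA. ABCA1 is higher in IMA than in IMPA, and is level between SPA and SA, which both lie above IMA.

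Uptake and trafficking of cholesterol were described by 8 genes. In IMA 3 were called lower, LIPA, NPC1 and SCARB1, and 2 higher, STARD4 and VLDLR, against 40.2% and 19.9% of all genes. In SA 3 were called lower, LRP1, NPC2 and STARD4, and 4 higher, VLDLR, TMEM97, SCARB1 and LIPA, against 26.0% and 26.1%. The SCARB1 call in SA (0.20, adjusted p = 0.0388) was lost without SA1, SA4, SA5, SPA2, SPA3 or SPA5 (adjusted p between 0.0560 and 0.0939), without SPA1 and SA5 together (adjusted p = 0.0888) and under 5 other settings (adjusted p between 0.0669 and 0.222). Its call in IMA (-0.25, adjusted p = 0.0209) was lost without IMA5 (adjusted p = 0.0526) or IMPA1 (adjusted p = 0.0514).

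The genes of this list with the largest called changes were NPC2, LIPA, LRP1 and STARD4. LIPA, the lysosomal lipase, fell by 0.67 in IMA and was at 0.10 in SA (adjusted p = 0.0452), a call lost without SA2, SA3, SPA2, SPA3, SPA4 or SPA5 (adjusted p between 0.0828 and 0.101) and under 8 other settings (adjusted p between 0.0539 and 0.413). NPC2, which binds cholesterol in the lysosome, was at 0.12 in IMA (adjusted p = 0.0608, called without IMA2 at 0.0420 or IMA3 at 0.0495) and fell by 0.77 in SA (adjusted p = 3.53e-08). STARD4, a carrier of free cholesterol, was 0.17 higher in IMA (adjusted p = 0.0214, lost without IMA2 at 0.0547 or IMPA4 at 0.0526) and 0.44 lower in SA (log2 change -0.44, adjusted p = 0.000143). LRP1, a large receptor for lipoprotein remnants, was at -0.26 in IMA (adjusted p = 0.189, called without IMPA5 at 0.0487) and fell by 0.45 in SA (adjusted p = 0.0122, lost with the most abundant transcript at 0.203).

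Efflux and storage showed 3 genes lower and 3 higher of 8 tested in each depot, against 40.2% and 19.9% of all genes in IMA and 26.0% and 26.1% in SA. ABCA1, the pump that passes cholesterol to apolipoproteins, stood at 6.67, 9.43, 5.58, 8.30 and 5.50 FPKM in IMPA 1 to 5 and at 18.8, 18.9, 13.3, 17.8 and 17.9 FPKM in IMA 1 to 5. It rose by 1.19 on the log2 scale (SE 0.14, adjusted p = 1.72e-05) in intramuscular cells. In SPA and SA it had means of 35.7 and 36.6 FPKM and did not pass the test (0.03, adjusted p = 0.475), and the difference was called (1.16, adjusted p = 1.30e-06). APOE, an apolipoprotein, rose in both depots, by 0.59 (adjusted p = 3.48e-05) and 0.41 (adjusted p = 5.26e-06).

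The remaining genes of that list that were called in both depots were MYLIP, a ubiquitin ligase, at -0.26 and -0.39, NCEH1, which splits cholesterol esters, at 0.29 and 0.43, and CH25H. CH25H, which makes 25-hydroxycholesterol, was at -0.27 in IMA (adjusted p = 0.0218, lost without IMA1, IMA4, IMPA1 or IMPA2 at 0.0513 to 0.0556) and rose by 0.56 in SA (adjusted p = 5.99e-07). SOAT1, which forms cholesterol esters for storage, fell by 0.52 in IMA (adjusted p = 4.96e-05) and was at 0.10 in SA (adjusted p = 0.164). The LXR receptor genes NR1H2 and NR1H3 were called lower in SA, at -0.23 and -0.36, and were at -0.06 and -0.10 in IMA. MYLIP, NCEH1, NR1H2 and NR1H3 were named after their values were seen.

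The non-sterol branch starts from the product of FDPS. Of its 10 genes counted here, without GGPS1, 7 were called lower and 1, RABGGTB, higher in IMA, against 40.2% and 19.9% of all genes. In SA 1, PDSS2, was lower and 2, ICMT and PDSS1, were higher, against 26.0% and 26.1%, and the 3 calls became 5 without SA3 or without SPA1. PDSS1, which builds the side chain of ubiquinone, changed by -0.39 (adjusted p = 0.000118) and 0.37 (adjusted p = 8.97e-05), and ICMT, which methylates prenylated proteins, by -0.42 (adjusted p = 1.13e-05) and 0.17 (adjusted p = 0.00563). The differences were called for both (-0.76, adjusted p = 2.99e-08, and -0.59, adjusted p = 4.92e-08). PDSS2 fell in both depots, with log2 changes of -0.35 and -0.34. COQ2, which joins that side chain to the ring, fell in IMA (-0.24, adjusted p = 0.00172) and was at -0.05 in SA (adjusted p = 0.353).

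The likeness of patterns was measured as the root mean square difference of centred log2(FPKM + 1) over the 20 libraries, as a description. The groups share these libraries, so likeness mostly reflects the 4 group means. Closest to HMGCS1 were LSS (0.0891), FDFT1 (0.136) and ENAH (0.154), and closest to SQLE were ACAT2 (0.141), MSMO1 (0.179) and LOC102177400 (0.221). Closest to INSIG1 were DHCR7 (0.187), ACTB (0.198) and SRF (0.203), and closest to DHCR7 were IRF2BP1 (0.141), ACTB (0.143) and SGK1 (0.149). Closest to SREBF2 were USP19 (0.101), ACTB (0.119) and UCKL1 (0.124).

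Closest to FDFT1 were ENAH (0.0633), EPHB4 (0.101) and SLC38A6 (0.114), and among the closest to FDPS were MBD3 (0.119) and LTV1 (0.129). HMGCS1 had FDFT1 and INSIG1 among its 20 nearest genes of 11431, SQLE had DHCR7, HMGCS1 and INSIG1, INSIG1 had DHCR7, HMGCS1 and SREBF2, DHCR7 had SREBF2, and FDFT1 had HMGCS1. FDPS and SREBF2 had no other member among their 20 nearest, the best being FDFT1 at rank 296 and DHCR7 at rank 40. ACTB, a cytoskeletal gene outside the pathway and often used as a reference gene, was near 3 of the 7 genes, at means of 625.7, 435.1, 617.2 and 415.1 FPKM in IMPA, IMA, SPA and SA.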

How the data were processed

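RNA of 20 libraries, 5 per group, was sequenced on an Illumina HiSeq from strand-specific libraries. Reads were aligned to the goat genome ARS1 and assembled, with HISAT2 2.0.4 and StringTie 1.3.1 named in the submitters' processing notes. The methods of the study name Scripture and Cufflinks for the assembly, and StringTie, Ballgown and Cuffdiff for the FPKM values. The deposited FPKM values were used without realignment. They are not counts, so the precision that depth gives is unknown.

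Transcripts were summed per gene symbol. Genes averaging 1 FPKM or more across all 20 libraries entered the tests, as log2(FPKM + 1), in limma 3.58.1 (R 4.3.3, moderated variances with a trend), 10 libraries per comparison and 20 for the interaction, two-sided, with Benjamini-Hochberg adjustment over all genes tested. A call is an adjusted p under 0.05. Transcripts were tested alike. The steps were tested on simulated data. Python 3.11.15 with numpy 2.4.6, pandas 2.3.3 and matplotlib 3.10.9 was used for the rest.

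The members and lists were chosen with earlier results of these data known. Some genes of the lists, and results that need them, are not reported here. Named genes were the members, SREBF1, SCAP and INSIG2, up to 4 genes per list with the largest called changes between stages, and the 3 genes with the most similar pattern per member. Promoter motifs and protein sequences were not analysed here. Alternatives were other filters, pseudocounts, scalings and models, the most abundant transcript, a replicate block and left-out libraries.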

Additional observations from a re-analysis of the deposited data

Results flagged for a closer look

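Of 156 groups of 5 libraries examined for the named genes and their transcripts, 17 held a library whose distance from its nearest neighbour was over 0.71 of the range of the group, Dixon's 95% limit. Chance flags about 1 group in 20, and the groups share libraries. IMA3 was the odd library of IMA for HMGCS1, at 36.4 FPKM against 28.5 in the next library, LSS (3.48 against 2.70) and MSMO1 (34.3 against 25.1), all as the highest, and for ABCA1 as the lowest (13.3 against 17.8). HMGCS1 transcript XM_005694739.3 was flagged with its gene, at 34.3 FPKM in IMA3. Without IMA3 all 7 members were still called lower in IMA.

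IMPA5 was the odd library of IMPA for 3 transcripts of FDPS, XM_005677386.3 at 23.8 FPKM and XM_005677389.2 at 12.9 FPKM as the highest, and XM_005677388.3 at 7.16 FPKM as the lowest. SA1 was the highest of SA for XM_005677386.3, at 9.16 FPKM. FDFT1 transcript XM_018051830.1 was highest in IMPA3, at 4.03 FPKM, and in IMA4, at 4.42 FPKM. Outside the members, ACAT2 was highest in SA3 (20.7 FPKM), ERLIN2 lowest in IMPA4 (28.5), MBTPS1 highest in IMPA1 (27.3), LIPA and PDSS1 in SPA1 (76.0 and 5.25) and PDSS2 in SA1 (5.75).

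The change between stages differed between the depots, by the interaction in limma with an adjusted p under 0.05, for 17 of the 30 named genes, with 55.3% of all genes tested called either way. The differences, intramuscular minus subcutaneous on the log2 scale, were -0.58 for SQLE, -0.57 for FDPS, -0.70 for ACAT2 and -0.26 for LSS among the enzymes. They were -0.51 for MBTPS1, -0.50 for SCAP, -0.37 for ERLIN2 and -0.35 for RNF139 among the genes of SREBP activation. They were 0.90 for NPC2, 0.61 for STARD4, 1.16 for ABCA1, -0.77 for LIPA, -0.83 for CH25H and -0.62 for SOAT1 among those of uptake, efflux and storage. In the non-sterol branch they were -0.76 for PDSS1, -0.59 for ICMT and -0.20 for COQ2. LSS lost its call without IMA2, IMA4, IMA5, IMPA3, IMPA5 or SPA3 (adjusted p between 0.0508 and 0.0605).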

How the results depend on the processing

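Of 123 counts of called members under the alternatives, 122 stayed within 1.5 times the reported count, and the interaction fell from 2 to 1 with the most abundant transcript in place of the sum. Leaving out each library in turn gave 7 lower members in IMA, 6 in SA, 4 to 5 in IMPA against SPA, 3 to 4 in IMA against SA and 2 to 3 for the interaction. Of 861 member log2 changes, 833 kept their side of the threshold, 15 lost and 11 gained a call, and 2 turned, both of DHCR7 with the most abundant transcript (0.216 and 0.0534), whose split between transcripts varied within the groups. Under that setting LSS turned in IMPA against SPA (-0.0119) and in the interaction (0.0175), and ERLIN2 in IMA against IMPA (0.48), IMPA against SPA (-0.17), IMA against SA (0.0828) and the interaction (0.26). NCEH1 turned with quantile normalization in IMPA against SPA (-0.20, adjusted p = 0.0224). The cause was not tested for these. Under upper-quartile scaling, equal mRNA sums and quantile normalization the median log2 change of all genes lay between -0.11 and 0.03 in the 5 comparisons. The share of lower calls in the interaction was 62.5%, and 51.6% with quantile normalization.

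With the replicate block, 7, 6, 5, 3 and 2 members were called in the 5 comparisons, the same as without it, and among the pathway genes LIPA in SA against SPA lost its call (0.10, adjusted p = 0.0982). Libraries of the same number did not deviate together, with correlations from -0.24 to 0.12 over 20 pairs, 3 of them over 0.1. The Ballgown covariate cost MBTPS2 (0.15, adjusted p = 0.0618) and VLDLR (0.21, adjusted p = 0.116) their calls in IMA, and equal mRNA sums cost ICMT its call in SA (0.10, adjusted p = 0.0569). Among the interactions, STARD4 lost its call with the most abundant transcript (adjusted p = 0.0646) and COQ2 with upper-quartile scaling (adjusted p = 0.0739) and quantile normalization (adjusted p = 0.156). FPKM without counts limits what can be said of low genes, such as SREBF1.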
